A study of Mus musculus with 18 samples.

Results

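The receptors described here belong to the family that shares the common gamma chain. The family was taken as the 7 genes Il2ra, Il2rb, Il2rg, Il4ra, Il7r, Il15ra and Il21r, chosen by name, and 6 of them were found among the 20298 genes of the table. Il2rg, which encodes the common gamma chain itself, was not analysed here. Expression was measured by RNA-seq in Ly6C+ CCR2+ monocytes of C57BL/6 mice and in the monocyte-derived cells (MDCs) that grew from them with granulocyte-macrophage colony-stimulating factor (GM-CSF), in 6 groups of 3 libraries each. The groups were WT and DKI cells left untreated (day 0) and WT and DKI cells after 3 or 6 days in GM-CSF at 20 ng/mL. DKI mice carry N-domain mutations in both Stat5a and Stat5b, in the germline and so in every cell, and their STAT5 proteins do not form tetramers. The labels give liver as the tissue, whereas the series design names bone marrow. The liver markers Alb, Apoa1 and Ttr summed to at most 0.0470 RPKM in any library, and Ly6c2, a monocyte marker, was between 953 and 1762 RPKM in the 6 day 0 libraries. Whether a library held cells of 1 mouse or of several is not given in the sources used here.

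Receptors of this family pair the common gamma chain, which carries the kinase JAK3, with a chain that carries JAK1, such as Il2rb, Il4ra, Il7r or Il21r. IL-2 and IL-15 share the beta chain Il2rb and differ in their alpha chains, Il2ra and Il15ra, which bind the ligand and carry no kinase of their own. Il4ra binds IL-4 and, with an IL-13 receptor chain, IL-13, and it acts mainly through STAT6. Il7r binds IL-7 and also joins the TSLP receptor, and Il21r binds IL-21 and acts mainly through STAT3. STAT5 is the main STAT of IL-2, IL-7 and IL-15 signalling in lymphocytes, and Il2ra, Cish and Socs2 are classical STAT5 target genes there. GM-CSF signals through another receptor, made of Csf2ra and Csf2rb, that uses JAK2 and STAT5.

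The 6 genes lie on 3 chromosomes, and 4 of them form neighbouring pairs (build mm10). Il2ra is at chr2:11642792-11693194 and Il15ra at chr2:11705172-11733985, 11978 bases further on. Il4ra at chr7:125552271-125579474 and Il21r at chr7:125603252-125634397 are 23778 bases apart. Il7r is at chr15:9506159-9529941 and Il2rb at chr15:78479256-78511621. The RefSeq promoter table (GRCm38.p6, 250 bases before and 50 after each gene start) held 6 entries for 5 of the 6 genes. These windows of 300 bases were searched for TTCNNNGAA, the spacing that STAT5 prefers, and for TTCNNNNGAA, which STAT6 also binds. Both motifs read the same on either strand. TTCNNNGAA occurred in 1 of the 6 entries, that of Il7r, and in 8.30% of all 32851 promoters. TTCNNNNGAA occurred in none of the 6 and in 6.95% of all promoters. The bases before the start of Il2ra are shown because Il2ra was the member called between the genotypes, those of Il7r because they held the motif, and a stretch at the start of Cish because it held TTCNNNGAA 2 times and Cish was called in the same direction as Il2ra. Cish was thus picked after its motifs and its call were known, and the share of promoters with 2 copies was not counted. Il2ra was called and held no motif in its window, while Il7r held it and was not called between the genotypes. A link between the motif and a call was not tested. Capitals mark the motif, and a window without it says only that these letters were not there. The table places the start of Il7r 65 bases inside the gene span given above, so the last 65 of its bases shown lie within that span, downstream of the motif.
Il2ra, chr2:11642542-11642791, plus strand: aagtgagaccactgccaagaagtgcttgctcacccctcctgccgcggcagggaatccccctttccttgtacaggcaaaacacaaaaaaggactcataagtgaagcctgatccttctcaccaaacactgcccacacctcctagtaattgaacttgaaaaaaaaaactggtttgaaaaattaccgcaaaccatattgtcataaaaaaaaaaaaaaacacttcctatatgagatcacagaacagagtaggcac
Il7r, chr15:9529877-9530126, minus strand: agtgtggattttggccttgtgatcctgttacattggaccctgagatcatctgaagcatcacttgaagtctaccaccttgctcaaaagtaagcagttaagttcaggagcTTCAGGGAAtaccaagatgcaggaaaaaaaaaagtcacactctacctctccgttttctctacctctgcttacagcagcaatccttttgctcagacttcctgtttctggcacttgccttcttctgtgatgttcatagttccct
Cish, chr9:107296659-107296678, plus strand: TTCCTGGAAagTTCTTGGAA

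Values are RPKM, reads scaled by gene length and by all reads assigned to genes in a library, so that levels of different genes can be set side by side. Differences were tested with limma on log2(RPKM + 1), and a gene was called where its p, adjusted after Benjamini-Hochberg, was under 0.05 and its change exceeded 1.5-fold, among genes with a mean RPKM above 2 in a compared group. Differences on this scale understate those of genes at low RPKM. The libraries held between 29.5 and 43.2 M assigned reads, so that 1 RPKM of Il2ra, with a counted length of 4428 bases, stood for well over 100 reads. Same-numbered WT and DKI libraries of a day varied together and were treated as pairs where a fit used a replicate block. The names of the replicate 1 libraries of days 3 and 6 carry an earlier year than those of all other libraries, which are called later-named here. In bulk RNA, fewer cells of a type and less RNA per cell cannot be told apart. No group was cultured without GM-CSF, so GM-CSF and time in culture cannot be told apart either.

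Il2ra, the alpha chain that gives the IL-2 receptor its high affinity, was the receptor of the family that separated WT from DKI MDCs. By day 6 it rose from almost nothing to the highest mean level of the family in WT cells, and it stayed far lower in DKI cells. At day 3 the WT libraries held 173, 75.0 and 82.4 RPKM of Il2ra and the DKI libraries 1.82, 1.30 and 7.04 RPKM. All 3 WT libraries were above all 3 DKI libraries, and DKI replicate 3 was the highest of its group. The mean was 32.5-fold higher in WT (110 ± 54.4 against 3.39 ± 3.18 RPKM, SD, n = 3 each), or 70.6-fold without DKI replicate 3, and the limma difference of DKI minus WT was -4.79 on the log2(RPKM + 1) scale (SE 0.54, 95% interval -6.09 to -3.48, adjusted p = 0.00947).

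At day 6 the 3 WT libraries held 257, 147 and 181 RPKM of Il2ra and the 3 DKI libraries 3.58, 4.29 and 4.78 RPKM. The groups again did not overlap, and the DKI libraries lay close together. The mean was 46.3-fold higher in WT (195 ± 56.0 against 4.22 ± 0.606 RPKM), with a limma difference of -5.20 (SE 0.23, 95% interval -5.76 to -4.65, adjusted p = 0.00194). Within same-numbered pairs, WT exceeded DKI by 94.9-, 57.8- and 11.7-fold at day 3 and by 71.8-, 34.4- and 37.9-fold at day 6. Il2ra was called on both days in every alternative run, including the later-named libraries alone, where the difference was -4.21 (adjusted p = 0.0467) at day 3 and -4.89 (adjusted p = 0.0154) at day 6.

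Of the 5 members that passed the filter on RPKM, 1 was called at day 3, where 7.42% of the 9740 genes tested were called, and 1 at day 6, where 7.54% of 9842 were. Il2ra was also the 1 member of 6 whose genotypes did not overlap on either day. Over all genes tested, 36.3% did not overlap at day 3 and 37.2% at day 6.

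Other cell types and states moved with the genotype too. The 9 dendritic cell markers, among them Ccl17 and Zbtb46, summed to between 5352 and 9866 RPKM in WT and between 132 and 443 RPKM in DKI MDCs at day 3. The 8 macrophage markers, among them Mertk and C1qa, summed to between 270 and 773 RPKM in WT and between 2466 and 6098 RPKM in DKI cells. At day 6 the ranges were 4475 to 11067 RPKM in WT and 460 to 509 RPKM in DKI for the dendritic cell markers, and 364 to 1755 RPKM in WT and 1712 to 7184 RPKM in DKI for the macrophage markers. Of 12 marker lists, the summed levels of 6 did not overlap between the genotypes at day 3 and those of 5 at day 6. Besides the dendritic cell list on both days and the macrophage list at day 3, these were the following. Monocyte markers were lower in WT, at 1531 to 3802 RPKM against 8885 to 20946 RPKM in DKI at day 3 and at 2833 to 4159 against 10020 to 13972 RPKM at day 6. The 4 innate lymphoid cell markers (Gata3, Rora, Il1rl1 and Kit) summed to more in WT, at 7.69 to 18.1 RPKM against 5.33 to 7.21 RPKM at day 3 and at 9.57 to 20.8 against 6.98 to 7.30 RPKM at day 6. Rora did not share this in replicate 1 of day 3, where it was lower in WT than in DKI. The other 3 summed to 5.32 to 15.8 RPKM in WT against 2.45 to 4.07 RPKM in DKI at day 3. At day 6 their sums were 6.73 to 17.1 against 2.37 to 4.86 RPKM. The summed plasma cell and B cell lists also did not overlap on either day, but each through 1 gene. Xbp1 gave nearly all of the plasma cell sum, which was 246 to 404 RPKM in WT against 122 to 197 RPKM in DKI at day 3 and 269 to 389 against 120 to 195 RPKM at day 6. The other 2 plasma cell markers, Sdc1 and Jchain, were lower in WT at day 3 (2.13 to 5.24 against 6.20 to 10.4 RPKM) and overlapped at day 6. Cd79b set the B cell sum apart, and the other 10 B cell markers summed to at most 0.433 RPKM and overlapped on both days. Without the most abundant gene of each list, the dendritic cell, monocyte and innate lymphoid cell sums still did not overlap on either day, nor did the macrophage sum at day 3. The part of these lists in the difference in Il2ra was not tested. The 10 T and NK cell markers overlapped between the genotypes and summed to at most 4.01 RPKM in the 6 WT libraries of days 3 and 6, where Il2ra was at least 75.0 RPKM. Single markers of this list ranged there from 0, for Gzma, Ncr1 and Prf1, to 2.53 RPKM, in WT replicate 2 of day 6. The part of T and NK cells in the level of Il2ra was not tested either.

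Before GM-CSF the counts of Il2ra were small but already differed in rank. The WT libraries held 20, 24 and 9 reads (0.107, 0.128 and 0.0624 RPKM) and the DKI libraries 6, 7 and 8 reads (0.0349, 0.0366 and 0.0612 RPKM). The groups did not overlap, by a margin of 1 read between WT replicate 3 and DKI replicate 3. Summed over 3 libraries these were 53 reads (exact 95% Poisson interval 39.7 to 69.3, counting error only) against 21 reads (13.0 to 32.1). An exact two-sided permutation test gave p = 0.1, the smallest possible with 3 against 3. Il2ra was under the filter on RPKM at day 0, and with no filter the limma difference of -0.07 had an adjusted p of 0.999986. It was the 1 member of 6 that did not overlap at day 0, as did 1.03% of the 9179 genes tested, of which Il2ra was not one. The members called were 0 of 3 tested and the genes called 0.0% of 9179, with 44 at an unadjusted p under 0.05 in limma and 0 called by limma voom on recovered reads.

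**Figure D1:**
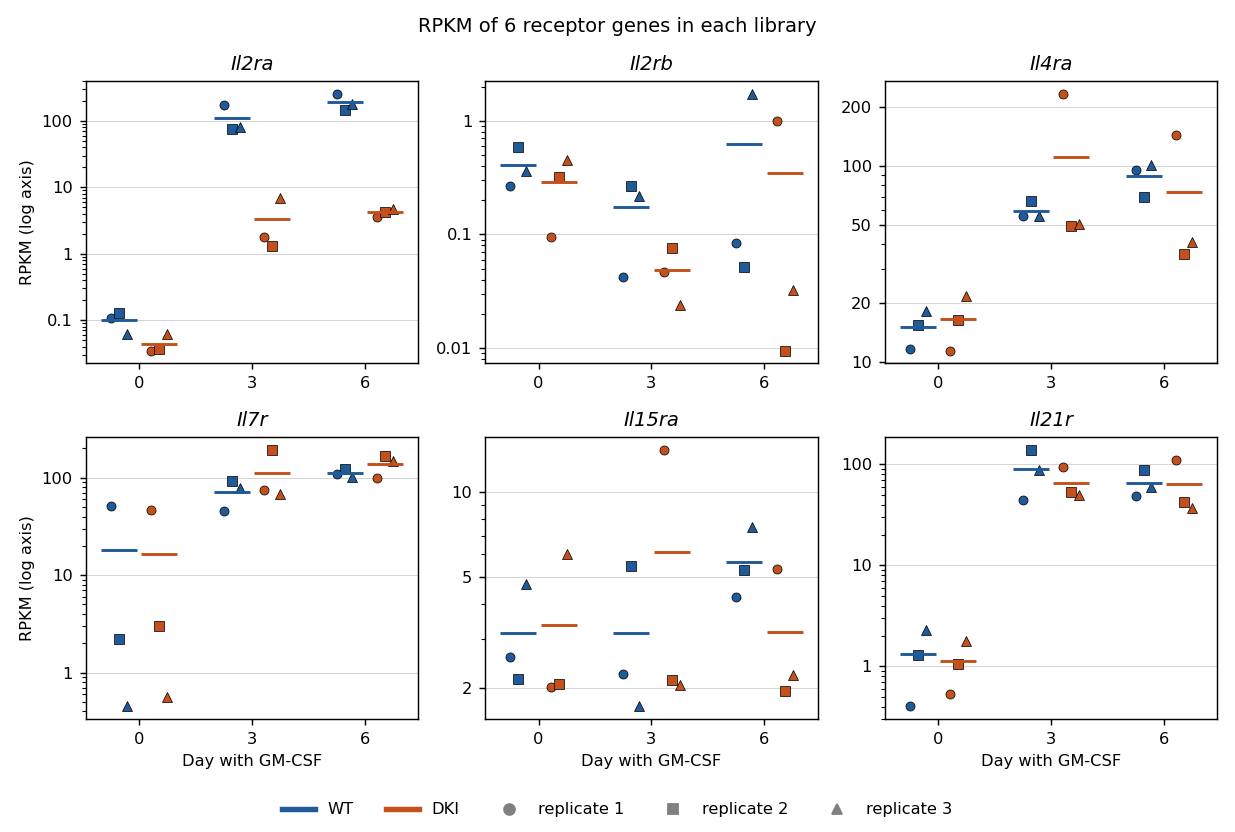
RPKM (log axis, its range set for each gene) of the 6 receptor genes by day with GM-CSF, with WT in blue and DKI in orange, 1 point per library (circle, square and triangle for replicates 1, 2 and 3) and bars at the group means. For Il2ra every WT point of days 3 and 6 is at 75.0 RPKM or more and every DKI point at 7.04 RPKM or less, while for the other genes the genotypes overlap on both days.

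From day 0 to day 3 Il2ra rose in both genotypes. In WT the mean rose 1108-fold, from 0.0993 ± 0.0336 to 110 ± 54.4 RPKM (SD, n = 3), a limma difference of 6.55 (SE 0.31, adjusted p = 2.94e-05). In DKI it rose 76.6-fold, from 0.0442 ± 0.0147 to 3.39 ± 3.18 RPKM, a limma difference of 1.84 (SE 0.48, adjusted p = 0.0268), with no overlap between days in either genotype. Without DKI day 3 replicate 3 the DKI rise was 35.2-fold, and Il2ra was then under the filter on RPKM and not tested. The DKI call was lost without DKI day 0 replicate 1, 2 or 3 (adjusted p = 0.0697, 0.0758 and 0.0695) and with limma voom on recovered reads (adjusted p = 0.0515), all with the same direction.

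The rise was smaller in DKI than in WT, with an interaction of -4.72 on the log2(RPKM + 1) scale (SE 0.61, 95% interval -6.05 to -3.38, adjusted p = 0.00272). Il2ra was the 1 member of 5 called in that interaction, where 2.91% of 10212 genes were called, and it was called again with the replicate block, with 3.82% of all genes. With limma voom on recovered reads the interaction of Il2ra was -4.24 with an adjusted p of 0.397, and the call was lost, while 0.901% of all genes were called. With the other alternatives that keep all libraries or only the later-named ones, the adjusted p was between 0.000298 and 0.0127, and leaving out 1 library gave between 0.000281 and 0.0115.

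Il21r, the IL-21 receptor chain, rose from day 0 to day 3 in both genotypes. WT libraries held 0.402, 1.31 and 2.31 RPKM of Il21r at day 0 and 44.1, 140 and 87.9 RPKM at day 3. DKI libraries held 0.533, 1.07 and 1.77 RPKM at day 0 and 94.1, 53.2 and 50.3 RPKM at day 3. Every day 3 library was above every day 0 library. The means rose 67.7-fold in WT (106-fold without WT day 0 replicate 3, limma difference 5.23, SE 0.47, adjusted p = 0.000322) and 58.7-fold in DKI (4.96, SE 0.32, adjusted p = 0.000568), and both calls held in every alternative run. The rises differed between the genotypes by -0.27 with a 95% interval from -1.65 to 1.11 (adjusted p = 0.894).

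Il4ra, the chain that binds IL-4 and IL-13, was present before GM-CSF and rose further. WT libraries held 11.7, 15.6 and 18.2 RPKM of Il4ra at day 0 and 56.0, 66.5 and 55.8 RPKM at day 3, without overlap. DKI libraries held 11.5, 16.4 and 21.8 RPKM at day 0 and 235, 49.8 and 50.9 RPKM at day 3, again without overlap but with replicate 1 far above the others. The mean rose 3.92-fold in WT (limma difference 1.92, SE 0.19, adjusted p = 0.000464). In DKI the difference was 2.32 (SE 0.61, adjusted p = 0.0278), and the call was lost without DKI day 0 replicate 1, 2 or 3 (adjusted p = 0.0856, 0.0795 and 0.0561), with no filter on RPKM (adjusted p = 0.0565) and with the replicate block (adjusted p = 0.0594). Without DKI day 3 replicate 1 the DKI difference was 1.59.

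Il7r, the IL-7 receptor alpha chain, was set apart at day 0 by its replicates rather than by genotype. WT libraries held 51.3, 2.21 and 0.450 RPKM of Il7r (6922, 300 and 47 reads) and DKI libraries 46.3, 3.02 and 0.559 RPKM (5775, 419 and 53 reads). In both genotypes replicate 1 was over 10-fold above replicate 2, and replicate 2 above replicate 3. In the same order of libraries, the 4 basophil and mast cell markers summed to 121, 46.4 and 12.8 RPKM in WT and to 58.3, 22.7 and 39.5 RPKM in DKI, where replicate 3 was above replicate 2. Rora, which innate lymphoid cells express, was at 8.41, 3.80 and 3.93 RPKM in WT and 8.11, 4.56 and 3.29 RPKM in DKI. The other 3 innate lymphoid cell markers, Gata3, Il1rl1 and Kit, summed to between 1.64 and 2.12 RPKM in WT and between 1.34 and 1.74 RPKM in DKI, where replicate 2 was the highest. The 11 B cell and B precursor markers, with most of their sum from Cd79b, ran the other way. They summed to 3.24, 9.64 and 14.5 RPKM in WT and to 3.48, 8.83 and 12.5 RPKM in DKI. The 10 T and NK cell markers summed to 9.95, 16.2 and 9.88 RPKM in WT and to 7.41, 10.5 and 12.1 RPKM in DKI. The part of these cell types in the level of Il7r was not tested.

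At day 3 Il7r was at 45.5, 91.7 and 78.2 RPKM in WT and at 74.3, 194 and 67.8 RPKM in DKI. WT replicate 1 of day 3 was below WT replicate 1 of day 0, so the WT days overlapped, while the DKI days did not. The limma difference was 3.48 in WT (SE 1.21, adjusted p = 0.05002, just above the threshold) and 3.91 in DKI (SE 1.199, adjusted p = 0.0439). Without WT day 0 replicate 1 the WT difference was 5.02 and was called (adjusted p = 0.000598), and a call was also gained with quantile normalization, with all 18 libraries in 1 fit and with limma voom (adjusted p = 0.0492, 0.0220 and 0.0448). The DKI call was lost without DKI day 0 replicate 2 or 3 (adjusted p = 0.129 and 0.107) and without DKI day 3 replicate 1, 2 or 3 (adjusted p = 0.0741, 0.112 and 0.0747). It was also lost with a pseudocount of 0.1, with no filter on RPKM, with the replicate block and with limma voom (adjusted p = 0.0511, 0.0852, 0.0571 and 0.0511). Without DKI day 0 replicate 1 the DKI difference was 5.32.

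Il15ra, the IL-15 receptor alpha chain, stayed at a few RPKM in most libraries. WT libraries held 2.60, 2.17 and 4.70 RPKM of Il15ra at day 0, 2.25, 5.48 and 1.73 at day 3 and 4.23, 5.27 and 7.49 at day 6. DKI libraries held 2.03, 2.08 and 6.01 RPKM at day 0, 14.2, 2.15 and 2.05 at day 3 and 5.31, 1.95 and 2.24 at day 6. Apart from DKI replicate 1 of day 3, no library exceeded 7.49 RPKM. Il15ra was called in none of the 9 limma comparisons or in any alternative, and its difference between day 3 and day 0 was -0.06 in WT (95% interval -0.96 to 0.84) and 0.39 in DKI (-1.24 to 2.02).

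Il2rb, the chain shared by the IL-2 and IL-15 receptors, was near the limit of detection. Its level was between 0.0954 and 0.587 RPKM at day 0 and between 0.0238 and 0.266 RPKM at day 3, from 2 to 67 reads a library. At day 6 WT libraries held 0.0848, 0.0518 and 1.73 RPKM (8, 6 and 141 reads) and DKI libraries 0.999, 0.00950 and 0.0321 RPKM (81, 1 and 3 reads). WT replicate 3 and DKI replicate 1 thus stood over 10-fold above the others of day 6, 1 in each genotype. The 10 T and NK cell markers summed to 2.24 RPKM in DKI replicate 1 and to 1.02 RPKM in WT replicate 3. Their highest sum of day 6 was in DKI replicate 2, at 13.5 RPKM, of which Cd3g gave 8.79 RPKM and where Il2rb had 1 read. Il2rb was under the filter on RPKM in every comparison, and exact two-sided permutation tests of DKI against WT gave p = 0.5 at day 0, 0.3 at day 3 and 0.5 at day 6, where 0.1 is the smallest possible.

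In all, 3 of 5 members tested rose from day 0 to day 3 in WT, against 43.1% of 9938 genes called in either direction, and 4 of 5 rose in DKI, against 34.2% of 9922. Of the 6 members, 3 had days without overlap in WT (61.0% of genes tested) and 5 in DKI (55.2%). Il2rb was among the 5, and it was lower at day 3. No member was called lower.

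From day 3 to day 6 no member was called. In WT, limma called 0.0% of 9613 genes and 0 of 5 members, with 722 genes at an unadjusted p under 0.05 and 0 called by limma voom. Il2ra, Il4ra and Il7r were among those 722, with differences of 0.89, 0.56 and 0.68 (adjusted p = 0.649, 0.632 and 0.649), and the days did not overlap for 2 of the 6 members, Il4ra and Il7r, as for 14.3% of genes tested. In DKI, limma called 0.0% of 9540 genes and 0 of 5 members, with 93 genes at an unadjusted p under 0.05 and 0 by limma voom. The days overlapped for all 6 members in DKI, and 4.43% of genes tested did not overlap. With the replicate block limma also called 0 genes in either genotype, with 1221 in WT and 471 in DKI at an unadjusted p under 0.05. The change from day 3 to day 6 was not called different between genotypes for any of 5 members, nor for any gene (0.0% of 9985, 89 at an unadjusted p under 0.05 in limma, 0 by limma voom).

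**Figure D2:**
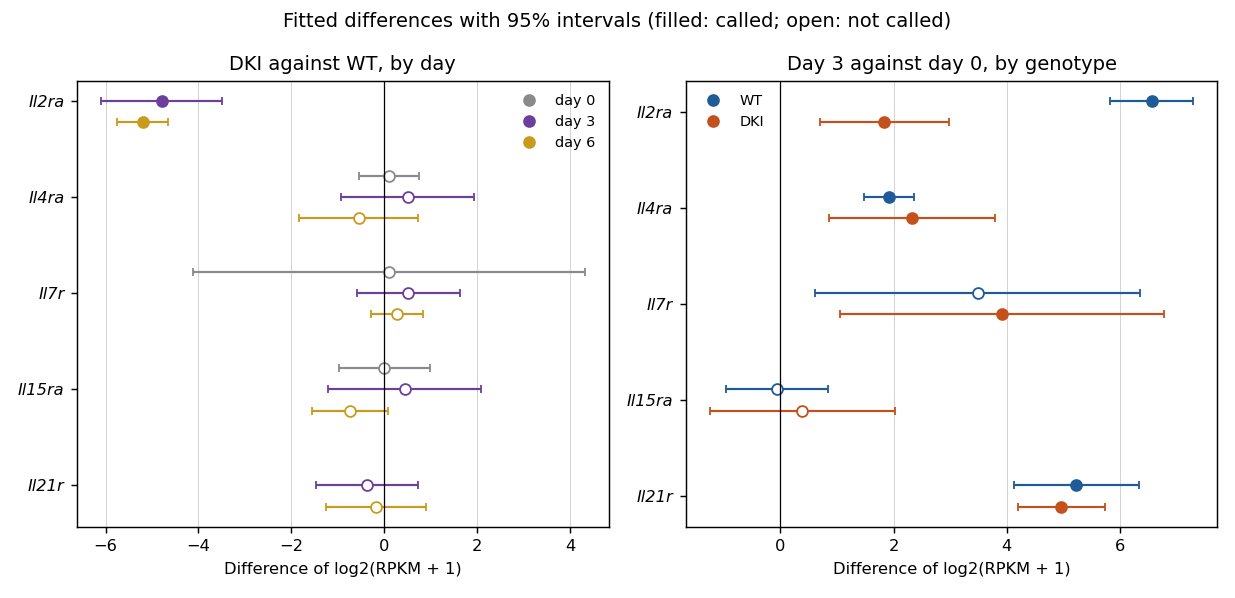
Differences of log2(RPKM + 1) with 95% intervals from limma for the 5 members that passed the filter in at least 1 comparison, DKI minus WT at days 0, 3 and 6 (left) and day 3 minus day 0 in WT and DKI (right), filled where called and open where not. Between genotypes the intervals of Il2ra lie below -3.48 and all others cross 0, and from day 0 to day 3 Il21r moved by 5.23 in WT and 4.96 in DKI.

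The order of the levels differed between day 0 and the days in GM-CSF and, on those days, between the genotypes. At day 0 Il7r and Il4ra led in both genotypes, at means of 17.99 and 15.2 RPKM in WT and 16.6 and 16.6 RPKM in DKI, and overlapped in range. The mean of Il7r rested on replicate 1. Without it the WT mean was 1.33 RPKM and the DKI mean 1.79 RPKM, under Il4ra (16.9 and 19.1 RPKM) and Il15ra (3.43 and 4.05 RPKM), and Il4ra was over 5-fold above Il7r in each of the other 4 libraries. Il15ra (3.16 and 3.37 RPKM in WT and DKI), Il21r (1.34 and 1.12), Il2rb (0.405 and 0.288) and Il2ra (0.0993 and 0.0442) followed in both. At day 3 the order in WT was Il2ra, Il21r, Il7r and Il4ra, at means of 110, 90.6, 71.8 and 59.4 RPKM, each overlapping the next, and Il15ra and Il2rb followed without overlap. The lead of Il2ra rested on WT replicate 1. Without it the means were 114 RPKM for Il21r, 84.9 for Il7r, 78.7 for Il2ra and 61.1 for Il4ra. In DKI at day 3 it was Il7r, Il4ra and Il21r, at 112, 112 and 65.9 RPKM, all overlapping, with Il15ra and Il2ra overlapping at 6.12 and 3.39 RPKM. Without DKI replicate 1 the means of Il4ra and Il15ra were 50.3 and 2.10 RPKM, under those of Il21r (51.8 RPKM) and Il2ra (4.17 RPKM).

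At day 6 Il2ra led in WT at 195 RPKM with no overlap with Il7r at 111 RPKM, and Il7r, Il4ra and Il21r overlapped in turn. In DKI cells of day 6 Il2ra had rank 4 at 4.22 RPKM, overlapping Il15ra at 3.17 RPKM and far under Il21r at 63.3 RPKM. Without DKI replicate 1 the day 6 means were 38.3 RPKM for Il4ra, 39.9 for Il21r, 4.54 for Il2ra and 2.10 for Il15ra. Il2rb was last of the family at days 3 and 6 in both genotypes.

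Il4ra, Il15ra and Il21r differed between the genotypes in opposite directions in different pairs. For Il4ra, DKI over WT was 4.19, 0.749 and 0.913 in pairs 1, 2 and 3 at day 3 and 1.52, 0.510 and 0.402 at day 6. For Il15ra it was 6.29, 0.393 and 1.19 at day 3 and 1.26, 0.371 and 0.299 at day 6. For Il21r it was 2.14, 0.381 and 0.572 at day 3 and 2.29, 0.477 and 0.619 at day 6. Pair 1, whose libraries carry the earlier year, was thus above 1 for all 3 genes on both days, and pair 2 was below 1 for all 3.

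Over all 3 pairs the limma differences at day 3 were 0.50 for Il4ra (95% interval -0.93 to 1.93, adjusted p = 0.628), 0.45 for Il15ra (-1.20 to 2.09, 0.713) and -0.36 for Il21r (-1.46 to 0.73, 0.649). At day 6 they were -0.55 for Il4ra (-1.83 to 0.73, adjusted p = 0.531), -0.73 for Il15ra (-1.56 to 0.09, 0.214) and -0.18 for Il21r (-1.26 to 0.89, 0.810). In the later-named libraries alone, the day 6 differences were -1.12 for Il4ra (adjusted p = 0.169), -1.24 for Il15ra (adjusted p = 0.151) and -0.86 for Il21r (adjusted p = 0.227), and at day 3 they were -0.27, -0.44 and -1.08 (adjusted p = 0.342, 0.626 and 0.0982). None of these was called, and those of the earlier year hold 1 pair a day, which allows no test of its own.

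DKI replicate 1 stood apart in other genes as well on both days. Il15, which encodes the ligand of Il15ra, was at 36.5 RPKM in DKI replicate 1 of day 3 and at 8.18 and 7.12 RPKM in replicates 2 and 3. Ly6c2 was at 775, 49.5 and 73.8 RPKM in the same order at day 3 and at 158, 10.5 and 5.30 RPKM at day 6. At day 6 Csf3r was 3.87-fold, Il4ra 3.79-fold, Il21r 2.77-fold and Il15ra 2.53-fold above the mean of the other 2 DKI libraries. The 3 stroma markers summed to 9.31 RPKM in DKI replicate 1 at day 3 and to 33.9 RPKM at day 6, and to at most 0.455 RPKM in the other DKI libraries of those days. The 8 macrophage markers summed to 6098, 3412 and 2466 RPKM in DKI replicates 1, 2 and 3 at day 3 and to 7184, 1712 and 2346 RPKM at day 6. Not every list had its highest sum there, as the neutrophil markers of day 3 were at 1087 RPKM in replicate 1 and 1791 RPKM in replicate 2. The part of the state of these libraries in the levels of Il4ra, Il15ra and Il21r was not tested. Without DKI replicate 1, the day 3 difference of Il4ra was -0.23 and that of Il15ra was -0.32. At day 6 the differences without it were -1.18 for Il4ra, -1.08 for Il15ra and -0.67 for Il21r (limma adjusted p = 0.0561, 0.0785 and 0.215).

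Il7r levels of the genotypes overlapped after GM-CSF. At day 6 Il7r was 108, 124 and 102 RPKM in WT and 99.6, 165 and 147 RPKM in DKI, with overlap. The limma difference was 0.27 (95% interval -0.28 to 0.83, adjusted p = 0.468), and at day 3 it was 0.52 (-0.60 to 1.64, adjusted p = 0.516).

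**Figure D3:**
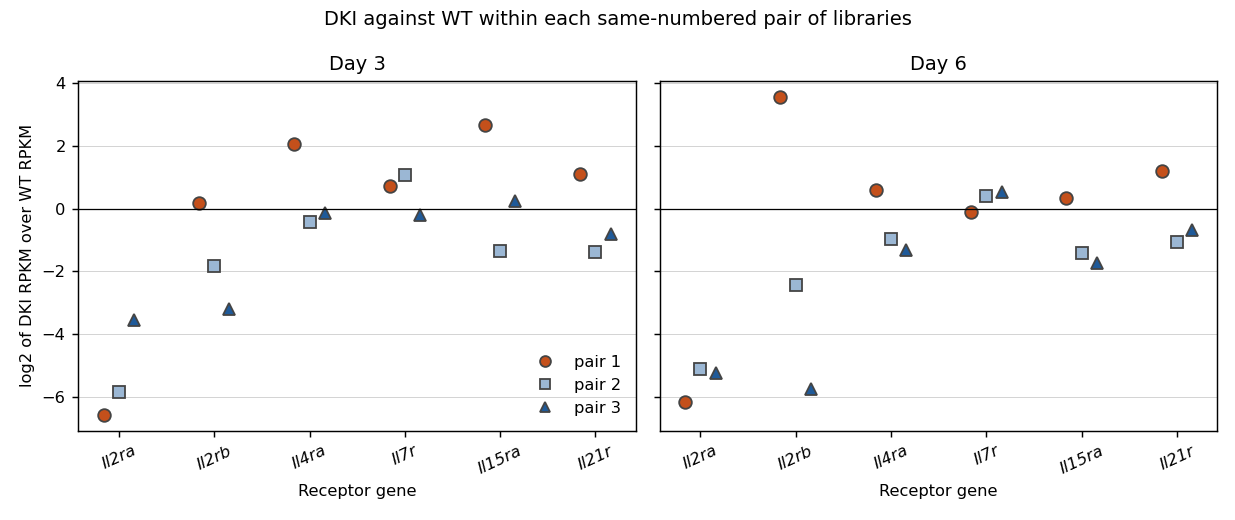
Log2 of DKI RPKM over WT RPKM within each same-numbered pair of libraries at day 3 (left) and day 6 (right) for the 6 receptor genes, with pair 1 (the earlier-named libraries) as an orange circle and pairs 2 and 3 (the later-named) as a light blue square and a dark blue triangle. Il2ra is at -3.55 or lower in all pairs, and Il4ra, Il15ra and Il21r are above 0 in pair 1 and below 0 in pair 2 on both days.

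The genes of the pathway around these receptors were read from lists of ligands, partner chains, kinases, STATs, and adaptors and feedback genes, drawn up with earlier results of these data known. Of the 31 that passed the filter, 4 were called at day 3 and 6 at day 6, all lower in DKI, or 12.9% and 19.4% against the 7.42% and 7.54% of all genes. The median difference of the 31 was -0.41 at day 3 and -0.49 at day 6, beside -0.11 and -0.17 over all genes tested. Socs2, a feedback inhibitor, was at 103, 121 and 82.0 RPKM in WT and 6.11, 3.61 and 4.84 RPKM in DKI at day 3, a difference of -4.14 (SE 0.22, limma adjusted p = 0.00239), and of -4.30 at day 6 (adjusted p = 0.00803). Cish, another inhibitor of the same family, differed by -2.28 at day 3 (SE 0.24, limma adjusted p = 0.00690) and by -2.47 at day 6 (adjusted p = 0.00673). All WT libraries were above all DKI libraries for both genes on both days.

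Among the kinases, Jak2 alone of 4 was called, at 302 ± 17.1 RPKM in WT and 70.1 ± 10.8 in DKI at day 3 (SD, n = 3, difference -2.10, limma adjusted p = 0.00477) and with -2.38 at day 6 (adjusted p = 0.0162). The kinases that these receptors carry were not called. Jak1 was at means of 67.9 and 89.1 RPKM in WT and DKI at day 3 and Jak3 at 6.51 and 8.32 RPKM. Of 5 STATs, Stat5a was called, with means of 42.6 and 12.4 RPKM at day 3 (difference -1.67, limma adjusted p = 0.0224) and of 41.6 and 11.7 RPKM at day 6 (-1.68, adjusted p = 0.0357, and 0.0516 with the replicate block). At day 0 Stat5a was between 12.1 and 17.1 RPKM in both genotypes. Stat6, through which Il4ra signals, was at 78.7 and 71.5 RPKM at day 3, and was not called.

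Pik3r1, a subunit of the PI3 kinase, and the inhibitor Socs1 were called at day 6 only, with differences of -1.59 (limma adjusted p = 0.0308) and -1.64 (adjusted p = 0.0268). At day 3 these were -0.76 and -1.03, and the change between the days was not called for any gene. Among the 8 ligands, Il2, Il9 and Il21 had at most 3 reads in any library, and Il15, at 10.4 to 14.4 RPKM, was the most abundant at day 0. At day 3 Il15 was lower in WT (2.90 to 4.19 RPKM) than in DKI (7.12 to 36.5 RPKM), without overlap and without a call.

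Of 27 other cytokine receptors tested at day 3 and 29 at day 6, 6 were called on each day, or 22.2% and 20.7%, against the 7.42% and 7.54% of all genes. Their list was likewise drawn up with earlier results of these data known, so these shares are a description. Csf3r, the G-CSF receptor, was higher in DKI by 3.14 at day 3 and 2.98 at day 6 (limma adjusted p = 0.0426 and 0.0362). Il10rb was higher by 1.39 and 1.44, and Tnfrsf1b by 1.35 and 0.97. Il18r1 was lower in DKI, by -1.76 and -2.02, as were Il12rb2, by -1.38 and -2.26, and Csf2rb2, whose reads may be shared with its near copy Csf2rb, by -0.92 and -0.81. With the replicate block 5 of the 27 were called at day 3 and 2 of the 29 at day 6, where the block called 5.66% and 7.31% of all genes. At day 3 the calls of Il10rb and Csf2rb2 were lost (adjusted p = 0.0690 and 0.0711) and that of Tgfbr1 was gained. At day 6 Csf3r alone of the 6 was still called, the other 5 had adjusted p from 0.0541 to 0.0667, and Kit was gained. With limma voom 4 and 3 were called, against 5.37% and 4.73% of all genes, and the calls of Csf3r and Csf2rb2 on both days and of Tnfrsf1b at day 6 were lost. On the log2(RPKM + 1) scale none of these differences was as large as those of Il2ra, -4.79 and -5.20.

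**Figure D4:**
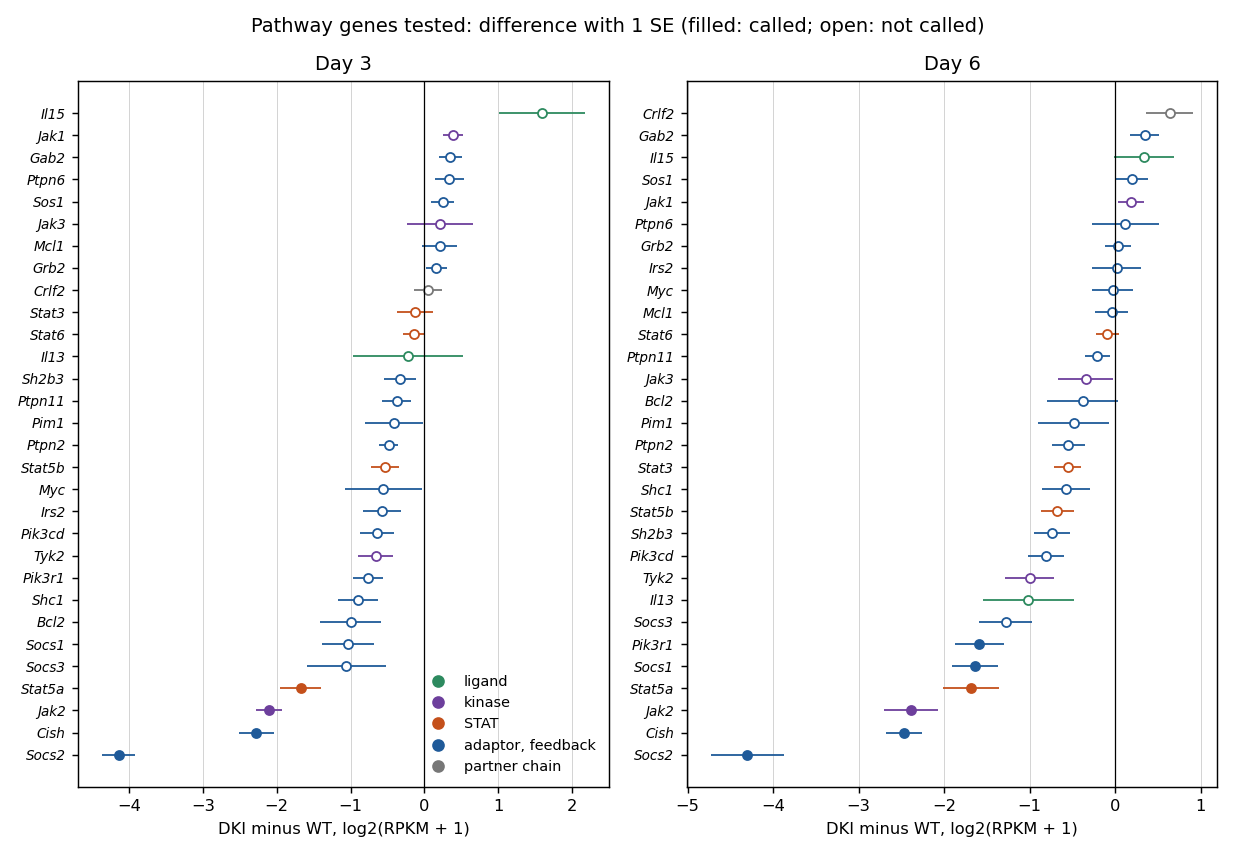
Limma difference of DKI minus WT on the log2(RPKM + 1) scale, with 1 SE, of pathway genes that passed the filter at day 3 (left) and day 6 (right), coloured by list, filled where called and open where not. Socs2 lies lowest at -4.14 and -4.30, followed by Cish and Jak2, and every filled point is below 0.

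The genes whose levels were most like those of each receptor over the 18 libraries were found among 10417 genes by Pearson's r of log2(RPKM + 1), as a description in which all libraries share the same 6 groups. For Il2ra they were Plxnd1 (r = 0.987), Hepacam2 (0.986) and Enah (0.984). For Il21r they were Pgpep1 (0.981), Ccng1 (0.981) and P2ry14 (0.980), and for Il7r Rusc2 (0.968), Plxna1 (0.962) and Gpnmb (0.951). For Il4ra they were Coa5 (0.972), Mov10 (0.966) and Gbp2 (0.957), and for Il15ra Tapbpl (0.850), Mx1 (0.833) and Etnk1 (0.829). For Il2rb, at its few reads, they were Slc39a8 (0.774), Fbp1 (0.767) and Serpine2 (0.724). The neighbours Il2ra and Il15ra did not appear among each other's 3 genes, nor did Il4ra and Il21r.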

How the data were processed

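RNA-seq was done on 18 libraries. According to the methods and the labels, the authors mapped single-end reads to mm10 with Subread, used featureCounts for reads per RefSeq gene and deposited RPKM values. Versions, strandedness and the handling of reads with several matches are not given in the sources used here. Near copies such as Csf2rb and Csf2rb2 may therefore share reads. Groups came from the sample titles.

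The deposited RPKM values were whole multiples of 1 read for 99.99% of the 17013 genes above 0 (tolerance 0.05 read), which gave the reads and a depth of 29.5 to 43.2 M assigned reads per library (median 36.4). The precision of low values is that of the reads behind them.

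Fits used limma 3.58.1 (lmFit, and eBayes with trend) in R 4.3.3 on log2(RPKM + 1), on the compared groups only, with genes above a mean of 2 RPKM in a group, and were tested on simulated data. The edgeR test that the authors used needs counts, so limma voom was run on recovered reads as an alternative chosen after the data were seen. Other alternatives were a pseudocount of 0.1, no filter, median centring, quantile normalization, all 18 libraries, a replicate block, leaving out each library and only the libraries whose names carry the later year. Intervals and permutation tests were made with scipy 1.17.1. Residuals of same-numbered WT and DKI libraries correlated at 0.163 or more in all 3 pairs on each day, and the series design speaks of 3 experiments, so these numbers were taken as pairs. Between days 3 and 6 within a genotype same-numbered libraries also correlated, at 0.125 or more, but were not always the best match. Replicate 3 of day 3 correlated more with replicate 2 of day 6 (0.145 in WT and 0.356 in DKI) than with replicate 3 (0.125 and 0.320).

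The rule for named genes took the members, the pathway and receptor list genes called between genotypes, and the 3 genes most like each member. Ligands, kinases, STATs, receptors and markers named without such a call were chosen after their values were seen. The members and lists were chosen with earlier results of these data known. Nothing says that libraries came from separate animals, so p-values measure the spread between these libraries. Some genes of the lists are counted but not reported by name here, and 1 is left out of the plot of pathway genes.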

Additional observations from a re-analysis of the deposited data

Results flagged for a closer look

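The change from day 0 to day 3 differed between DKI and WT, by the interaction in limma, for 1 of 5 receptors of the family tested, for 3 of 31 pathway genes and for 2 of 28 other cytokine receptors, where 2.91% of 10212 genes were called (0.901% with limma voom). The difference of DKI minus WT on the log2(RPKM + 1) scale was -4.72 for Il2ra (adjusted p = 0.00272), and with limma voom on recovered reads it was -4.24 with an adjusted p of 0.397. It was -4.23 for Socs2 (limma adjusted p = 4.13e-05), -2.11 for Jak2 (adjusted p = 0.00773) and -1.60 for Stat5a (adjusted p = 0.0326). Il18r1 differed by -1.74 (limma adjusted p = 0.0162) and Csf3r by 3.20 (adjusted p = 0.0478). With limma voom Socs2 and Jak2 were still called (adjusted p = 0.0263 and 0.0265), and Stat5a, Csf3r and Il18r1 were not (adjusted p = 0.0621, 0.0843 and 0.133). Groups of 3 libraries are too small for a test of single outlying libraries.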

How the results depend on the processing

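Of 43 member results under 658 alternatives, 585 kept their direction and call, 20 lost and 4 gained a call, and 49 changed sign, 0 of them of a called member. Members called between days 3 and 0 in DKI went from 4 to 2 with no filter, 2 with the replicate block, 2 with limma voom on recovered reads (added after seeing the data) and 1 to 3 without 1 library. Day 0 and day 3 libraries were not taken as pairs. The interaction call went from 1 to 0 with limma voom. The replicate block changed no member's call between genotypes (1 at day 3, 1 at day 6, 0 at day 0). Day 0 holds only later-named libraries, so that alternative was not run there. The cause of these changes was not tested. Values on the log2(RPKM + 1) scale that changed sign were as follows. Il15ra between genotypes at day 0 was -0.017 with a pseudocount of 0.1, -0.013 median centred, -0.027 quantile normalized and -0.062 with voom. In later-named libraries Il4ra and Il15ra were -0.27 and -0.44 between genotypes at day 3, Il15ra was 0.064 in WT and -0.38 in DKI from day 0 to 3 (0.028 in WT median centred), the interactions of days 0 to 3 were -0.37 for Il4ra and -0.44 for Il15ra, and that of days 3 to 6 was 0.033 for Il7r. Without 1 library, genotype differences ranged at day 0 from -0.11 to 0.32 for Il4ra, -1.32 to 1.63 for Il7r and -0.40 to 0.26 for Il15ra, at day 3 from -0.23 to 0.88 for Il4ra, -0.32 to 0.84 for Il15ra and -0.80 to 0.021 for Il21r, and at day 6 from -0.67 to 0.10 for Il21r. From day 0 to 3 Il15ra ranged from -0.43 to 0.19 in WT and -0.38 to 0.79 in DKI. From day 3 to 6 Il21r ranged from -0.79 to 0.032 in WT and -0.65 to 0.11 in DKI, and in DKI Il4ra from -1.12 to 0.25 and Il15ra from -0.82 to 0.34. Interactions of days 0 to 3 ranged from -0.33 to 0.78 for Il4ra, -1.11 to 1.84 for Il7r, -0.32 to 0.84 for Il15ra and -0.71 to 0.12 for Il21r, and those of days 3 to 6 from -0.79 to 0.14 for Il2ra, -0.52 to 0.23 for Il7r and -0.30 to 0.62 for Il21r. Few reads limit Il2ra at day 0 (6 to 24 reads) and Il2rb (1 to 141 reads).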

Other observations

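Il9r, the private chain of the IL-9 receptor, was not among the members, and its group means stayed under the filter on RPKM. Its highest levels were in DKI replicate 3, at 2.65 RPKM (255 reads) at day 3 and 2.15 RPKM (230 reads) at day 6. In the other DKI libraries Il9r was at 0.206 and 0.272 RPKM at day 3 and 0.841 and 0.548 RPKM at day 6. In WT libraries it was between 0.353 and 0.579 RPKM at day 3 and between 0.151 and 1.12 RPKM at day 6, and at day 0 it had at most 9 reads.

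Il4 and Il13, both ligands of Il4ra, had reads in the day 0 libraries. Il4 was at 2.96, 1.93 and 0.327 RPKM in WT and 1.92, 0.686 and 0.602 RPKM in DKI. Il13 was at 3.39, 1.80 and 0.0509 RPKM in WT and 1.81, 0.423 and 0.365 RPKM in DKI. Replicate 1 was the highest of each genotype for both genes, as it was for Il7r and for the sum of the basophil and mast cell markers, and their relation was not tested. At day 3 Il13 was at 0.423, 10.3 and 5.31 RPKM in WT and 2.68, 2.04 and 4.77 RPKM in DKI, and Il4 was at most 0.737 RPKM.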
